A study of Mus musculus with 8 samples.

Results

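The miR-200 family was followed here in mouse kidney, in db/db mice and in their controls, on arrays of mouse miRNAs. Its members were chosen by name: both arms of the 5 hairpins miR-200b, miR-200a and miR-429, which form a cluster on chromosome 4, and miR-200c and miR-141, which form a cluster on chromosome 6. This makes 10 of the 1881 mouse miRNAs on the array. Total kidney RNA was measured on 8 single-colour Agilent arrays, 4 for db/db mice and 4 for controls, all of them males aged 28 weeks. The db/db mice were of the strain given as C57BLKS/J Iar -+Leprdb/+Leprdb, and carry a germline mutation of the leptin receptor in every tissue, with obesity and diabetes. The controls were of the strain given as C57BLKS/J Iar -m+/m+, with m/m as their source and dbm in their titles, so whether they carried a db allele was not settled. Whether each sample is a different animal is not stated in the labels. The p-values therefore speak only of the spread among these 8 samples, which may be technical.

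The miR-200 family is a textbook marker of epithelial cells. Its members pair through their seed (bases 2 to 8 of the miRNA) with mRNAs of the transcription factors ZEB1 and ZEB2, which repress E-cadherin and other epithelial genes. ZEB1 and ZEB2 in turn repress transcription of both clusters, and TGF-beta, a driver of renal fibrosis, lowers the family in cultured epithelial cells. Each hairpin yields a 3p arm, the strand that is mostly kept in this family, and a 5p arm that is mostly discarded.

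The mature sequences show why the family is divided in a second way, by seed. All 10 members matched an entry of RefSeq (GRCm38.p6). The 3p arms are given 5′ to 3′, with the seed in capitals, grouped by the seed they share.
mmu-miR-200c-3p: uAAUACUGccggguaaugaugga
mmu-miR-200b-3p: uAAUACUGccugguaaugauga
mmu-miR-429-3p: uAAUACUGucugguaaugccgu
mmu-miR-141-3p: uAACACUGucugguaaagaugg
mmu-miR-200a-3p: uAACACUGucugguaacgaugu
Each seed thus has members in both genomic clusters, and no other mouse miRNA of the RefSeq table carries either seed. Counted from the 5′ end, miR-200b-3p and miR-200c-3p are identical at 20 of 22 positions and differ by U11G and A22G, with the base of miR-200b-3p first. miR-200a-3p and miR-141-3p are also identical at 20 of 22 positions and differ by C17A and U22G, with the base of miR-200a-3p first.

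The 5p arms fall into other seed groups, of which only miR-200a-5p and miR-200b-5p share a seed exactly. They are shown because their signals separate a detected pair from 3 arms that were not seen.
mmu-miR-200a-5p: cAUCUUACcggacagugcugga
mmu-miR-200b-5p: cAUCUUACugggcagcauugga
mmu-miR-429-5p: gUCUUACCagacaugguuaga
mmu-miR-200c-5p: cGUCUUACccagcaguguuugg
mmu-miR-141-5p: cAUCUUCCagugcaguguugga

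In RefSeq, on GRCm38.p6, the miR-200b, miR-200a and miR-429 hairpins lie on the minus strand at chr4:156053905-156055750, a span of 1846 bases. That span is within the bounds of the long non-coding RNA gene Gm13648. The miR-200c and miR-141 hairpins lie on the minus strand at chr6:124717914-124718390, a span of 477 bases that overlaps no other annotated gene. Their nearest protein-coding neighbours are Phb2, 968 bases away, and Ptpn6, 2316 bases away.

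Of the 10 members, 7 were detected on all 8 arrays and 3 on none. The 7 were all 3p arms together with miR-200a-5p and miR-200b-5p, and all were among the 316 miRNAs tested. Levels are given as log2 of the scaled signal, which is the spot signal averaged over the probes of a miRNA and scaled so that the arrays have the same 75th percentile. Probes differ in brightness, so levels of different members are not ranked against each other. No spot of a mouse miRNA was saturated. A single slide, scanned in 1 run, carried the 8 arrays. Its row 2 held the db/db samples and its row 1 the control samples, so any effect of the row cannot be told apart from that of genotype.

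Of the 7 tested members, 2 rose (miR-200c-3p and miR-141-3p), 1 fell (miR-200a-5p) and 4 did not pass an adjusted p of 0.05. This share of 42.9% called is near the 41.8% of all 316 tested miRNAs that passed in either direction, of which 24.4% were higher and 17.4% lower in db/db kidneys. Groups that did not overlap were found for 3 members, miR-200c-3p, miR-141-3p and miR-429-3p, a share of 42.9% against 41.5% of all tested miRNAs. The number of members called is thus no result about the family as a whole. The median change was 0.07 for the 7 members, 0.10 for the 3p arms and -0.14 for the pair of 5p arms, beside -0.02 for all tested miRNAs. By size of change miR-200c-3p ranked 33 and miR-141-3p 44 of 316 from the highest increase. Both lay near the median size of 0.41 among called miRNAs.

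The chromosome 6 cluster was higher in db/db kidneys through both of its 3p arms. mmu-miR-200c-3p, which targets ZEB1 and ZEB2, was 1.34-fold higher and miR-141-3p, its cluster mate with the other seed, 1.28-fold higher. The log2 scaled signal of miR-200c-3p was 8.11, 8.13, 8.10 and 8.04 in db/db replicates 1 to 4, against 7.50, 7.67, 7.66 and 7.88 in control replicates 1 to 4. All 4 db/db arrays lay above the highest control array, and the control arrays were spread more widely. The means were 8.10 ± 0.04 in db/db and 7.68 ± 0.15 in control kidneys (SD, n = 4 each), a change of 0.42 ± 0.08 (SE) on the log2 scale with a 95% interval from 0.24 to 0.59. It passed the threshold of 0.05 (limma with Benjamini-Hochberg adjustment over 316 miRNAs, adjusted p = 0.00293).

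mmu-miR-141-3p showed the same pattern across arrays. Its log2 scaled signal was 8.27, 8.27, 8.13 and 8.19 in db/db replicates 1 to 4, against 7.71, 7.87, 7.82 and 8.03 in control replicates 1 to 4. The groups did not overlap, and control replicate 1 was the lowest and control replicate 4 the highest of the controls for both arms. The means were 8.21 ± 0.07 in db/db and 7.86 ± 0.13 in control kidneys (SD, n = 4 each). The change was 0.36 ± 0.07 (SE), with a 95% interval from 0.19 to 0.53 (limma, Benjamini-Hochberg adjusted p = 0.00519). Both calls held with each of the 8 arrays left out in turn, with changes from 0.36 to 0.48 for miR-200c-3p and from 0.31 to 0.42 for miR-141-3p. They were lost when arrays were scaled on all miRNAs, most of them undetected (0.43 and 0.37, adjusted p = 0.383 and 0.499), and miR-141-3p also with no filter on dim miRNAs (adjusted p = 0.0552). Under the scaling on all miRNAs the fit gave each tested member the same SE, 0.2466, which is not the member's own spread.

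**Figure D1:**
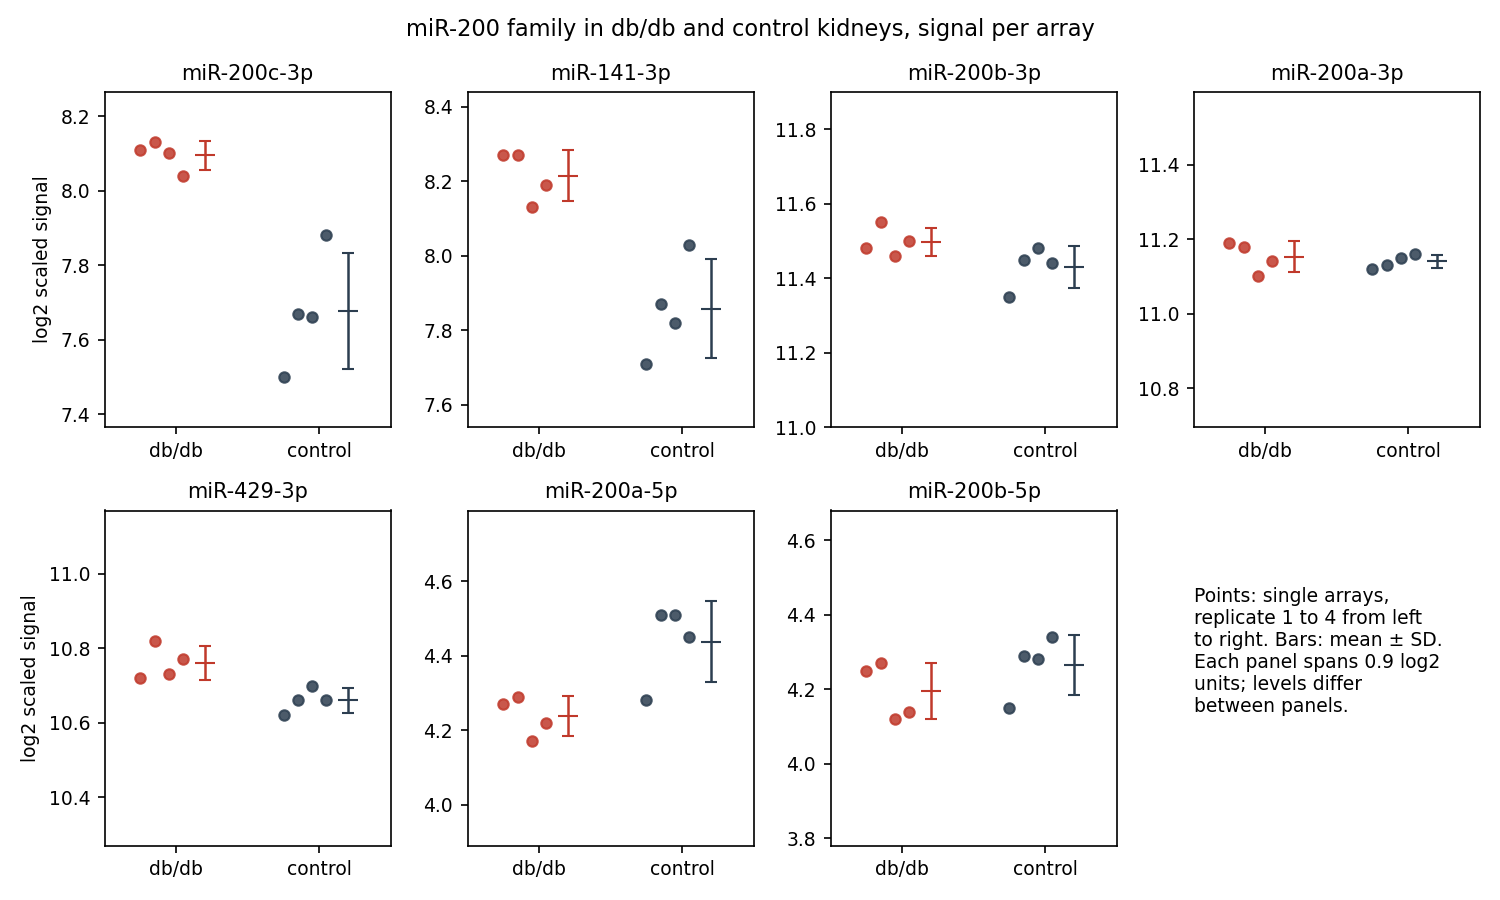
Log2 scaled signal of the 7 tested members (y axis) in db/db (red, left) and control (dark, right) kidneys. Points are single arrays and bars the mean ± SD of 4 arrays. Each panel spans the same number of log2 units. For miR-200c-3p and miR-141-3p every db/db point lies above every control point, while miR-200a-3p averages 11.15 in db/db and 11.14 in control kidneys.

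The overall signal of the arrays differed too. The log2 75th percentile used for scaling was 8.73, 8.57, 8.67 and 8.64 in db/db replicates 1 to 4, and 8.40, 8.51, 8.52 and 8.67 in control replicates 1 to 4. Control replicate 1 thus had the weakest array and the lowest miR-200c-3p, and control replicate 4 the strongest control array and the highest miR-200c-3p of the controls. Among db/db arrays, replicate 2 was the weakest and had the highest miR-200c-3p, 8.13, while replicate 1 was the strongest, with 8.11. At a percentile of 8.67, db/db replicate 3 had 8.10 and control replicate 4 had 7.88. The ranges of the groups overlapped little, from 8.57 to 8.73 in db/db and from 8.40 to 8.67 in control samples. The part of array signal in the change was not tested.

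**Figure D2:**
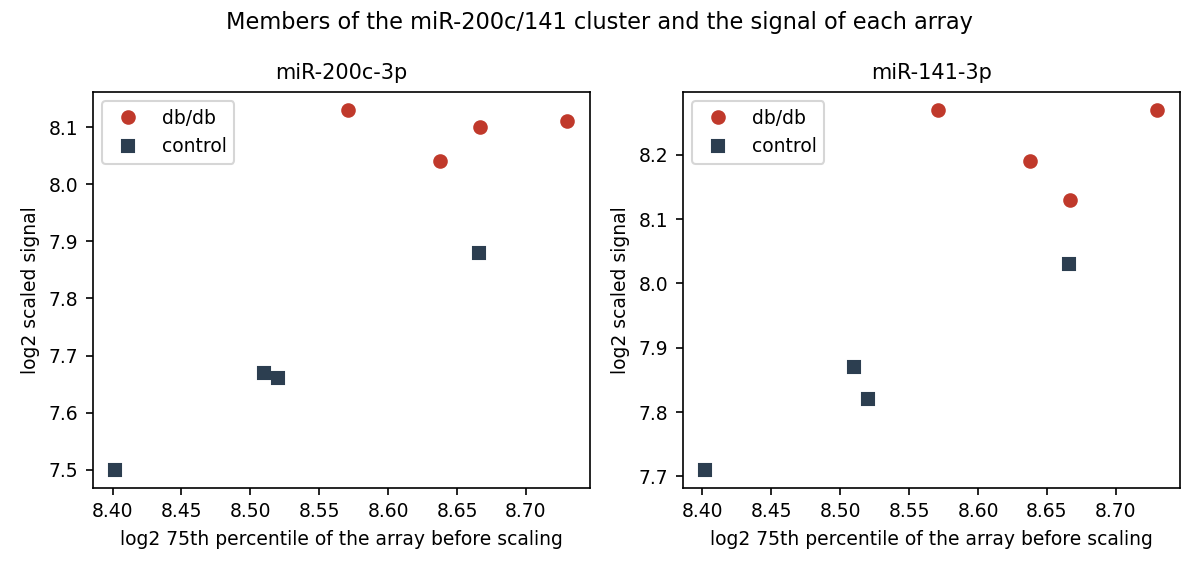
Log2 scaled signal of miR-200c-3p (left) and miR-141-3p (right) against the log2 75th percentile of the same array before scaling, with db/db arrays as red circles and control arrays as dark squares. The lowest control point is at 8.40 on the x axis and the highest at 8.67. The db/db points run from 8.57 to 8.73.

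Markers of other cell types also differed between the groups. In whole-kidney RNA, fewer cells of a type and less RNA per cell cannot be told apart. Of 6 tested leukocyte miRNAs none rose and 5 fell, with a summed scaled signal of 254 to 365 in db/db and 602 to 776 in control kidneys. Their changes ran from -1.49 for miR-146a-5p (adjusted p = 0.000137, limma) to -0.22 for miR-155-5p (0.0646), with a median of -1.27. Of 5 stromal and smooth muscle miRNAs none rose and 3 fell, with sums of 1210 to 1300 in db/db and 1390 to 1670 in control kidneys. Their changes ran from -0.44 for miR-214-3p to -0.04 for miR-143-3p. Neither of the 2 endothelial and neither of the 2 erythroid miRNAs passed the test. The values were -0.15 for miR-126a-5p and -0.11 for miR-126a-3p of endothelium, and 0.53 for miR-144-3p and 0.27 for miR-451a of erythroid cells. The hepatocyte list holds a single miRNA, miR-122-5p, which rose, with 50.2 to 133 in db/db and at most 2.36 in control kidneys. Of 8 miRNAs of kidney tubules, 5 rose, none fell and 2 did not pass, and miR-215-5p was not detected on any array. The tubule list ran from 1.05 for miR-204-5p (adjusted p = 1.94e-06, limma) to -0.01 for miR-194-5p, with a median of 0.21. The sum of the tubule list was 15700 to 16200 in db/db and 13800 to 14700 in control kidneys. The part of these shifts in the change of the chromosome 6 cluster was not tested.

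In the chromosome 4 cluster none of the 3p arms passed the test. mmu-miR-200a-3p, which shares its seed with miR-141-3p, had a log2 scaled signal of 11.19, 11.18, 11.10 and 11.14 in db/db replicates 1 to 4, against 11.12, 11.13, 11.15 and 11.16 in control replicates 1 to 4. The groups overlapped, with means of 11.15 ± 0.04 in db/db and 11.14 ± 0.02 in control kidneys (SD, n = 4 each). The difference of 0.01 ± 0.04 (SE) had a 95% interval from -0.07 to 0.10 (limma, Benjamini-Hochberg adjusted p = 0.822). That interval does not reach the lower bound of 0.19 for miR-141-3p. The difference was 0.19 with scaling to the labelling spike-ins and passed (adjusted p = 0.0451), and it was -0.036 in the authors' deposited values.

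mmu-miR-200b-3p, which shares its seed with miR-200c-3p, had a log2 scaled signal of 11.48, 11.55, 11.46 and 11.50 in db/db replicates, against 11.35, 11.45, 11.48 and 11.44 in control replicates. The groups overlapped, with db/db replicate 3 below the highest control array. The difference was 0.07 ± 0.04 (SE), with a 95% interval from -0.03 to 0.17 (limma, Benjamini-Hochberg adjusted p = 0.228). With quantile normalization it was -0.11 (adjusted p = 0.0613), and with scaling to the labelling spike-ins it was 0.25 and passed (0.0286).

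mmu-miR-429-3p, the last member of the cluster, had 10.72, 10.82, 10.73 and 10.77 in db/db replicates, against 10.62, 10.66, 10.70 and 10.66 in control replicates. The groups did not overlap, although by a narrow margin. The difference of 0.10 ± 0.04 (SE), with a 95% interval from 0.0049 to 0.19, was not past the threshold (limma, Benjamini-Hochberg adjusted p = 0.0835). It passed under 4 of 14 other settings. These were normexp background correction (0.11, adjusted p = 0.0362), limma with trend and robust fitting (0.10, 0.0313), no scaling (0.23, 0.0363) and scaling to the labelling spike-ins (0.27, 0.0156). With quantile normalization the difference was -0.021 (adjusted p = 0.593).

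**Figure D3:**
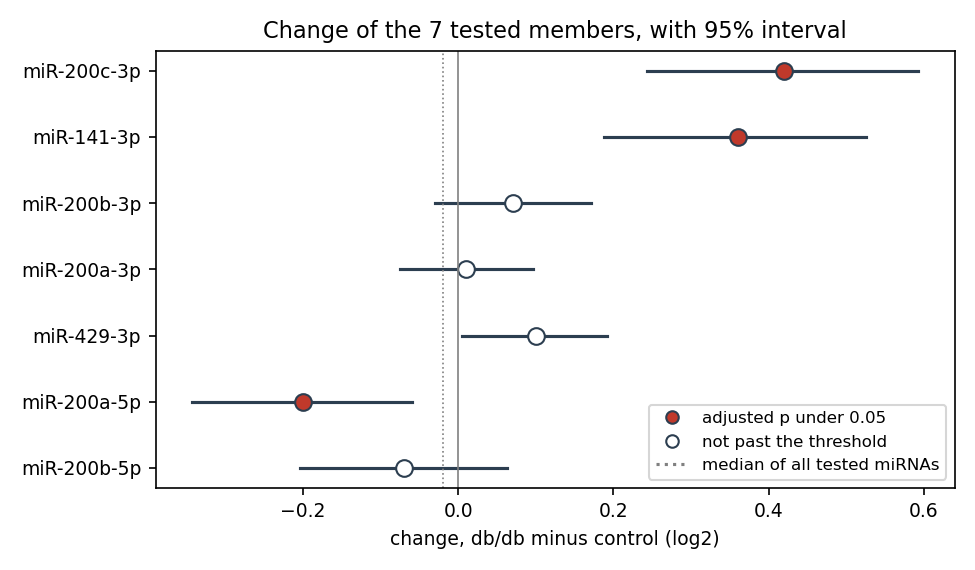
Change of each tested member, db/db minus control, on the log2 scale (x axis), with its 95% interval from limma. Filled points passed an adjusted p of 0.05, and the dotted line is the median of all 316 tested miRNAs, -0.02. The intervals of miR-200c-3p and miR-141-3p lie wholly to the right of those of miR-200a-3p and miR-200b-3p, while that of miR-429-3p, which ends at 0.192, overlaps that of miR-141-3p, which starts at 0.188.

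The unequal change of the clusters can be written as a difference within single arrays, where the scaling of the array cancels. The mean shift of this difference follows from the changes given above and adds no new evidence. The mean log2 signal of miR-200c-3p and miR-141-3p minus that of miR-200b-3p, miR-200a-3p and miR-429-3p was -2.94, -2.99, -2.98 and -3.02 on the db/db arrays, against -3.43, -3.31, -3.37 and -3.13 on the control arrays. The groups did not overlap, and the mean difference was 0.33 higher in db/db kidneys. Under 14 other settings it was 0.22 to 0.34 higher, but most of these could not move it. A factor per array cancels, and filter and fit leave a difference of means as it is. The lowest value came from normexp background correction and the highest from quantile normalization. The value below 0 is no ratio of abundance, since probes differ in brightness. Because the members were chosen with earlier results known, these differences are described without a test. How often such differences separate the groups for other pairs of miRNAs was not counted. Of all tested miRNAs taken singly, 41.5% separated them.

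Pairs with the same seed gave like values, which also follow from the changes given above. miR-141-3p minus miR-200a-3p was -2.94 ± 0.03 in db/db and -3.28 ± 0.12 in control kidneys (SD, n = 4 each), 0.35 higher in db/db kidneys. miR-200c-3p minus miR-200b-3p was -3.40 ± 0.05 in db/db and -3.75 ± 0.13 in control kidneys, also 0.35 higher. In neither pair did the groups overlap, which again was not counted over other pairs of miRNAs. For both seeds, then, the arm made from the chromosome 6 locus was higher relative to the arm made from the other locus.

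Within a cluster the 3p arms stayed close to each other. miR-200c-3p minus miR-141-3p ranged from -0.16 to -0.03 on db/db arrays and from -0.21 to -0.16 on control arrays. miR-200b-3p minus miR-429-3p ranged from 0.73 to 0.77 on db/db arrays and from 0.73 to 0.78 on control arrays, the narrowest range of the pairs examined. miR-200a-3p was the least alike of its cluster, with miR-429-3p minus miR-200a-3p at -0.39 ± 0.05 in db/db and -0.48 ± 0.03 in control kidneys (SD, n = 4 each).

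**Figure D4:**
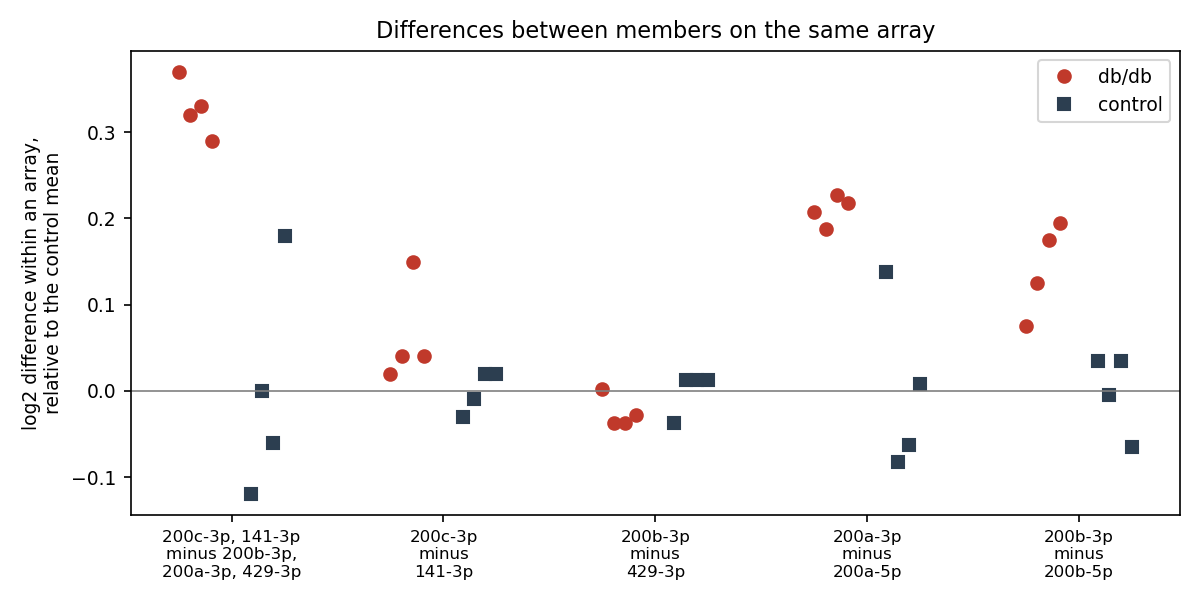
Log2 difference between members on the same array (y axis), relative to the mean of the control arrays, with db/db arrays as red circles and control arrays as dark squares. The first column sets the 3p arms of the clusters against each other, the next 2 columns compare arms within a cluster, and the last 2 compare the arms of a hairpin. In the first column and in the last 2, all db/db points lie above all control points.

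The 5p arms of the chromosome 4 cluster were dim, and their changes lay below 0 as scaled here. mmu-miR-200a-5p, the minor arm of the miR-200a hairpin, had a log2 scaled signal of 4.27, 4.29, 4.17 and 4.22 in db/db replicates 1 to 4, against 4.28, 4.51, 4.51 and 4.45 in control replicates 1 to 4. Control replicate 1 lay among the db/db arrays, and the other controls above them. It fell by 0.20 on the log2 scale in db/db kidneys, with an SE of 0.06 and a 95% interval from -0.34 to -0.06 (limma, Benjamini-Hochberg adjusted p = 0.0299). The call rested on single arrays. In the cases where it was lost, the adjusted p was 0.0508, 0.0787 and 0.0723 without db/db replicates 1, 3 and 4. It was 0.0785, 0.0761 and 0.0644 without control replicates 2, 3 and 4. The change was -0.025 with scaling to the labelling spike-ins and -0.074 with no scaling.

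mmu-miR-200b-5p had 4.25, 4.27, 4.12 and 4.14 in db/db replicates, against 4.15, 4.29, 4.28 and 4.34 in control replicates. The groups overlapped. The difference of -0.07 ± 0.06 (SE) had a 95% interval from -0.20 to 0.06 and was not past the threshold (adjusted p = 0.347 from limma after Benjamini-Hochberg adjustment). It was 0.06 with no scaling and 0.11 with scaling to the labelling spike-ins.

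Set against the 3p arm on the same array, both 5p arms were relatively lower in db/db kidneys as scaled here. miR-200a-3p minus miR-200a-5p was 6.91, 6.89, 6.93 and 6.92 on db/db arrays, against 6.84, 6.62, 6.64 and 6.71 on control arrays. For the miR-200b hairpin the values were 7.24, 7.29, 7.34 and 7.36 on db/db arrays, against 7.20, 7.16, 7.20 and 7.10 on control arrays. The groups did not overlap in either hairpin, with mean shifts of 0.21 and 0.14. Under quantile normalization the shift of the miR-200b hairpin turned to -0.043, while that of the miR-200a hairpin was 0.141 to 0.255 over 14 other settings. Here too, factors per array, filter and fit could not move the shifts. A 5p arm was measured at a scaled signal of 17.4 to 22.9, near the lower end of the array, against a floor of 2.80. These arm differences were described after their values were seen and were not tested. For them too, how often other pairs of miRNAs separate the groups was not counted.

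miR-429-5p, miR-200c-5p and miR-141-5p were not detected on any array. Their scaled signals ranged from -4.69 to -0.35, below the floor on all 8 arrays, and no fold is given. For the miR-200c and miR-141 hairpins the arms can therefore not be compared.

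The probes of each 3p arm gave the same picture, but they are not independent readings. For each 3p arm the sequence of the shorter probe lies wholly within that of the longer. Each 3p arm was read by 2 probes of 15 spots each, and each probe pairs with the 3′ part of the mature miRNA. The brighter probes of the 2 same-seed pairs are shown 5′ to 3′, since they show how few bases separate the members that moved from those that did not.
miR-200c-3p probe: tccatcattacccggc
miR-200b-3p probe: tcatcattaccaggcag
miR-141-3p probe: ccatctttaccagacag
miR-200a-3p probe: acatcgttaccagacagt
Each of these 4 probes has no mismatch with its own miRNA and 2 with the nearest other 3p arm, the other member of its same-seed pair. The miR-200c-3p probe also pairs with base 23, which lies beyond the end of miR-200b-3p and is not counted. The probes of miR-200c-3p changed by 0.42 and 0.42 on the log2 scale, and those of miR-141-3p by 0.36 and 0.34. All 4 separated the groups without overlap. The probes of miR-200b-3p had differences of 0.09 and 0.04, those of miR-429-3p 0.10 and 0.09, and those of miR-200a-3p of at most 0.04. Cross-hybridisation between members was not tested.

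The spots behind these values were tight for the 3p arms. The median coefficient of variation between spots of a probe was 2.61% to 5.42% over the probes of the 3p arms, and all of their spots were well above background. For miR-200a-5p it was 12.9% to 34.6%, and the 3 probes had 88.8%, 38.8% and 8.75% of spots well above background. The brightest of them, with 88.8%, changed by -0.24 and separated the groups. The dimmest changed by -0.05. For miR-200b-5p, 1 of the 4 probes lay at the floor on all 8 arrays with no spot well above background, and the others had 9.38%, 82.1% and 100% of spots well above it.

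The profile most like that of miR-200c-3p was that of miR-141-3p, and the reverse also held. Likeness was the root mean square difference of log2 profiles over the 8 arrays, each centred on its own mean, so a smaller value is closer. For that pair it was 0.050, rank 1 of 315 for each. The next miRNAs after miR-141-3p were miR-322-5p at 0.075, miR-34c-5p at 0.077 and miR-30e-3p at 0.087. Next for miR-141-3p, after its cluster mate, were miR-34c-5p at 0.051, miR-30e-3p at 0.054 and miR-10b-5p at 0.062. The shift between the groups is part of this measure, so miRNAs near a called member largely share its shift by construction. All 4 of these others were called higher in db/db kidneys. Their changes were 0.36 for miR-322-5p, 0.38 for miR-34c-5p, 0.30 for miR-30e-3p and 0.27 for miR-10b-5p. Under normexp background correction miR-34c-5p had a change of -0.03.

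In the chromosome 4 cluster, miR-200b-3p and miR-429-3p were each other's nearest profile at 0.025, ahead of all other tested miRNAs. Following them were miR-192-5p, miR-361-5p and miR-196a-5p for miR-200b-3p, at 0.031 to 0.038, and miR-130a-3p, miR-196a-5p and miR-192-5p for miR-429-3p, at 0.027 to 0.034. miR-200a-3p was nearest to miR-30c-2-3p, miR-23a-3p and miR-194-5p, at 0.033 to 0.034, with miR-200b-3p at rank 12 and miR-429-3p at rank 26. Its seed mate miR-141-3p stood at rank 214. None of these 7 miRNAs of other families passed the test. Profiles with little change lie close together in this measure by construction.

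A list of other epithelial miRNAs, separate from the kidney tubule list of which 5 members rose, was measured only in part. Of its 6 miRNAs, 2 were tested, of which none rose and 1 fell. miR-96-5p, of the miR-183 cluster, averaged 5.21 ± 0.16 in db/db and 5.60 ± 0.24 in control kidneys (SD, n = 4 each), a change of -0.39 with adjusted p = 0.0411 (limma with Benjamini-Hochberg adjustment). That call was lost without db/db replicates 2, 3 and 4 (adjusted p = 0.0523, 0.104 and 0.101) and without control replicates 2, 3 and 4 (0.0971, 0.0723 and 0.0893). miR-203-3p, an epithelial miRNA known from skin, averaged 7.45 ± 0.09 in db/db and 7.63 ± 0.09 in control kidneys, a difference of -0.17 (adjusted p = 0.0603 from limma). miR-183-5p was detected on no db/db array and 2 control arrays, and miR-182-5p on no db/db array and 1 control array. miR-205-5p, which also targets ZEB1 and ZEB2, and miR-375-3p were not detected on any array.

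Of 11 listed miRNAs linked to TGF-beta, ZEB factors or p53, 3 rose, none fell and 5 did not pass, with a median change of 0.11 over the 8 tested. The 3 were miR-34a-5p, miR-34b-5p and miR-34c-5p, of a family that p53 induces. miR-34a-5p had the largest change, 0.64 ± 0.09 (SE; limma, Benjamini-Hochberg adjusted p = 0.000922). miR-21a-5p, which TGF-beta raises, had a difference of 0.15 (adjusted p = 0.0828) and miR-192-5p, linked to ZEB2 in mesangial cells, one of 0.08 (adjusted p = 0.216). Neither passed in limma with Benjamini-Hochberg adjustment, but miR-21a-5p passed under 6 of 14 other settings, with changes of 0.15 to 0.32 (adjusted p = 0.00317 to 0.0431), and without control replicate 1 (0.19, adjusted p = 0.0206). miR-29a-3p, a repressor of collagen mRNAs, had the lowest value of the list, -0.05. miR-216a-5p and miR-217-5p were not detected on any array. The list was drawn up with earlier results of these data known.

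How far a member counts as changed depended on the scaling, which moves all miRNAs together. The median change of all tested miRNAs was -0.02 as reported, 0.10 with no scaling and 0.15 with scaling to the labelling spike-ins. The share of called miRNAs that were higher was 58.3% as reported, 78.1% and 83.1% under those settings, and 46.9% with quantile normalization. Set against that median under each setting, the change of miR-200c-3p was 0.38 to 0.46 and that of miR-141-3p 0.33 to 0.40 over 14 settings. The corresponding range was 0.00015 to 0.13 for miR-200a-3p and -0.05 to 0.15 for miR-200b-3p. A factor per array moves a member and the median alike, so settings that alter only this factor could not move these values. Fit and replicate block could not move them either. The narrow ranges are therefore in large part fixed in advance.

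**Figure D5:**
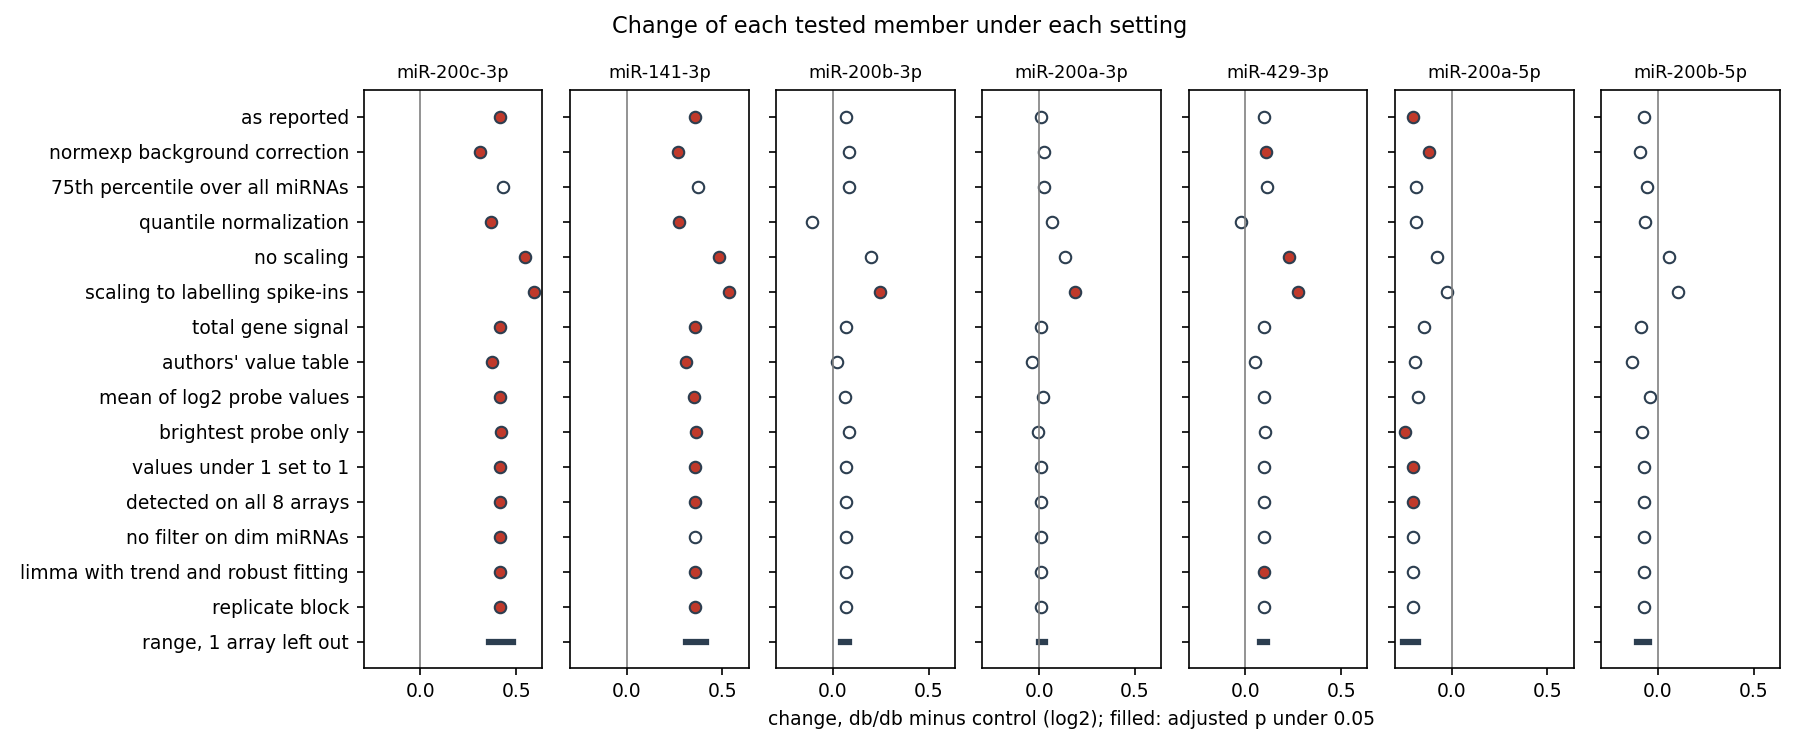
Change of each tested member, db/db minus control, on the log2 scale (x axis, the same in all panels) under the setting reported and 14 others (rows), with the range over the 8 arrays left out in turn as a bar. Filled points passed an adjusted p of 0.05. miR-200c-3p and miR-141-3p lie to the right of 0 in each row, and miR-200a-5p is filled in 5 of its 15 points.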

How the data were processed

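Each scanner file, as deposited, gives the intensity of every spot, written by Agilent Feature Extraction 12.0.3.1, a version named in the submitters' processing notes too. Per the file headers, spatial detrending was on and background correction was off. The authors also deposited processed values as a linear ratio. Over the 269 miRNAs that all arrays detected, it equals the scanner's total gene signal up to a divisor per miRNA and a factor per array, with log2 residuals of at most 8.56e-06, so a higher ratio means more signal. Its medians per array over all miRNAs were 0.857 to 1.01 in db/db and 0.98 to 1.11 in control samples. How the factors were chosen stays unknown. It served as an alternative.

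Processed signals of spots not marked as outliers were averaged per probe and these means per miRNA. Scaling used the 75th percentile over the 269 miRNAs that all 8 arrays detected, signals under a floor of 2.80 (1.48 in log2) were set to it, and log2 was taken. The 316 miRNAs detected on all arrays of a group were tested with limma 3.58.1 in R 4.3.3, 2-sided, with Benjamini-Hochberg adjustment and a threshold of 0.05. Only the limma step with its adjustment was tested on simulated data, with log2 values drawn independently for each array. It called 65.1% of miRNAs given a change of 0.25 and 3.49% of those given none. In each of 20 runs, 200 of the 316 miRNAs were given a change of 0.25, 0.5, 1 or 2. The rates depend on that share, which need not be that of these data. Averaging of spots, scaling, floor and filter were not simulated. The number of arrays limits the precision. Correlations of log2 values between arrays were 0.964 to 0.997, so no array was a copy of another. Tables and figures were made in Python 3.11.15 with pandas 2.3.3 and matplotlib 3.10.9.

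The members, the lists and the rule for named miRNAs were chosen with earlier results of these data known. The rule took all 10 members, the highest and lowest change of each list, 4 fixed miRNAs and the 3 closest profiles of each 3p arm. Sequences are RefSeq's (GRCm38.p6), and probe sequences are those of the scanner files. Alternatives concerned background, scaling, probe summary, floor, filter, fit, replicate block and left-out arrays.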

Additional observations from a re-analysis of the deposited data

How the results depend on the processing

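Settings of filter, fit and replicate block cannot alter the size of a change, only its call. The changes of miR-200c-3p and miR-141-3p kept their direction under all 14 settings and with each array left out. Their calls were lost with a 75th percentile that used all miRNAs (0.43, adjusted p = 0.383, and 0.37, 0.499). There the scaling signals were 2.31 to 4.14, near the floor, and 34 miRNAs and 0 members passed. Each tested member had the same SE under that setting, 0.2466. With no filter on dim miRNAs, 1 member passed and miR-141-3p did not (0.36, adjusted p = 0.0552), with more miRNAs tested. With spike-in scaling 5 members passed, miR-200a-3p (0.19) and miR-200b-3p (0.25) among them, and miR-429-3p (0.27). miR-429-3p also passed with no scaling (0.23), normexp (0.11) and trend and robust fitting (0.10).

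miR-200a-5p lost its call under the 75th percentile over all miRNAs (-0.19), quantile normalization (-0.19), no scaling (-0.074), spike-in scaling (-0.025), total gene signal (-0.14), the authors' value table (-0.19), the mean of log2 probe values (-0.18), no filter (-0.20), trend and robust fitting (-0.20) and the replicate block (-0.20). With an array left out its change was -0.25 to -0.18. The cause was not tested.

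Differences near 0 changed sign. This held for miR-200a-3p in the value table (-0.036), with the brightest probe only (-0.0040) and with an array left out (-0.00092 to 0.029), for miR-200b-3p (-0.11) and miR-429-3p (-0.021) with quantile normalization, and for miR-200b-5p with no scaling (0.056) and spike-in scaling (0.11). Of the other miRNAs named by the rule, sign changes were seen with no scaling for miR-126a-3p (0.019), miR-194-5p (0.12), miR-143-3p (0.083) and miR-29a-3p (0.079). With spike-in scaling they were seen for miR-126a-3p (0.069), miR-126a-5p (0.027), miR-194-5p (0.17), miR-203-3p (0.0030), miR-143-3p (0.13) and miR-29a-3p (0.13). miR-194-5p also turned under normexp (0.0064), the percentile over all miRNAs (0.0069) and the brightest probe (0.0014), miR-34c-5p under normexp (-0.028) and miR-192-5p with quantile normalization (-0.030). With an array left out, miR-451a had -0.12 to 0.70 and miR-194-5p -0.020 to 0.0048.

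Same-numbered arrays of the groups had correlations of deviations of -0.431, 0.406, -0.0456 and -0.0747 across miRNAs, with no common sign. So few values cannot settle whether the numbers pair the samples. In both groups the replicate number is also the column on the slide, so the replicate block is a column block too. With the replicate block 144 miRNAs passed, against 132, and among the members only the call of miR-200a-5p changed (adjusted p = 0.0571).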
